A study of Mus musculus with 6 samples.

Results

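The keratin and epidermal differentiation clusters are 3 stretches of the mouse genome in which the structural genes of skin, hair and nail lie side by side. The members were all promoter probes of the array whose mm9 position fell in a fixed window around each cluster. From the first to the last probe found, they covered chr11:99183756-100111357 (type I keratin cluster), chr15:101200057-101859097 (type II keratin cluster) and chr3:91817207-93273078 (epidermal differentiation complex). Neighboring probes, with no more than 500 bp between their starts, were joined into a region, which stands in for a promoter because the files give positions without gene names. The clusters held 152 of the 25078 regions of the array, made of 1093 of its 174276 probes. There were 60 type I regions, 33 type II regions and 59 epidermal differentiation regions. Of these, 145 had at least 3 probes and were tested (58, 33 and 54), and the other 7 are given by their values. In the text a region is called by its cluster and its order along the chromosome, so that I-26 is the 26th type I region, II-32 a type II region and E-18 a region of the epidermal differentiation complex.

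Genomic DNA came from the adipose tissue of 6 female C57BL/6J offspring at 32 weeks of age. In the LC group (3 mice) the dams ate a low chromium diet through gestation and lactation, in the CC group (3 mice) they ate the control diet, and both groups ate the control diet after weaning. The methods assign 1 pup of a litter to a group, and the labels do not name litters. MeDIP, the pull-down of DNA by an antibody against methylated cytosine, gave the Cy5 channel, unenriched input DNA from that mouse carried Cy3, and each mouse had 1 array. A level below is the log2 ratio of the MeDIP signal over the input signal, log2(MeDIP/input), with the median of all probes of an array set to 0. A level above 0 therefore means more enrichment by the antibody than at the median probe, and 1 unit is a factor of 2 in the ratio. Adipose tissue is a mixture of cells, so that a change of methylation within cells and a change in the mixture cannot be told apart, and these arrays hold no marker by which the labeled tissue could be checked.

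The input channel was dimmer in LC, with medians over local background of 105.5 to 169 intensity units against 240 to 334 in CC. The groups also occupied different slide positions (1 for LC, 3 for CC), and group, position and input brightness cannot be told apart. LC and CC replicates with equal numbers shared a scan day. Across the member regions, the arrays of a group correlated at 0.935 or more in each cluster. Regions share arrays and are not independent replicates.

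Keratins form the intermediate filaments of epithelial cells. Each filament is built from pairs of an acidic type I keratin and a basic type II keratin, and the genes of each type are clustered apart, with Krt18, a type I keratin, as the exception that lies beside its partner Krt8 in the type II cluster. The type I cluster also holds the Krtap genes, whose products are the keratin-associated proteins that cross-link hair keratins. The epidermal differentiation complex encodes proteins of the cornified envelope and of late keratinocytes, among them loricrin (Lor), involucrin (Ivl), filaggrin (Flg), trichohyalin (Tchh), the small proline-rich Sprr proteins and the late cornified envelope Lce proteins. Most of these genes are active in keratinocytes and hair follicles and silent in fat.

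The antibody binds methylated cytosine, which in mammalian DNA lies mainly in CpG. The CpG content of a promoter thus limits how much methylation there can be to bind, but does not give its level. RefSeq names 50 genes of the type I list (27 Krt and 23 Krtap), 27 of the type II list and 54 of the epidermal list. A promoter window of 300 bases, from 250 before to 50 after the gene start, was matched for 41, 16 and 46 of them. These windows are of the build GRCm38.p6 and could not be placed on the probes, which are on mm9, so they describe the gene families and not the regions measured. The median window held 3 CpG in the type I list, 6.0 in the type II list and 1.0 in the epidermal list, against 13.0 over all 17486 protein-coding windows. No CpG at all was found in 8 type I windows, all of them Krtap, in 11 epidermal windows and in no type II window, against 909 of the protein-coding windows. At least 20 CpG were found in 36.1% of protein-coding windows but among the 3 lists only in that of Krt7.

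The windows with the most and the fewest CpG of each list show how far apart these promoters lie. The 250 bases before the gene start are printed 5′ to 3′, with every CpG in capitals. For the type I list they are Krt28, a keratin of the hair follicle's inner root sheath, and Krtap3-2, a hair keratin-associated protein. For the type II list they are Krt7, a keratin of simple epithelia, and Krt90. For the epidermal list they are Prr9, a proline-rich protein, and Crnn, cornulin.
Krt28: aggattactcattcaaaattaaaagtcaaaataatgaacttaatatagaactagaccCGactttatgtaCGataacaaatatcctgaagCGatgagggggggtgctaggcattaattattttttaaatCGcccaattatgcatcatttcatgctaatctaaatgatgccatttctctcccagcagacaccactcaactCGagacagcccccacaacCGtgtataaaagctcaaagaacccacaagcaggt
Krtap3-2: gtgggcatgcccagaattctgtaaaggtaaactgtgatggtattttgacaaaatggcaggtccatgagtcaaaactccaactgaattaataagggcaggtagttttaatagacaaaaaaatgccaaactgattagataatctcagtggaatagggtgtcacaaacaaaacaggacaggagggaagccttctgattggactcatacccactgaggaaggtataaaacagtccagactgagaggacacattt
Krt7: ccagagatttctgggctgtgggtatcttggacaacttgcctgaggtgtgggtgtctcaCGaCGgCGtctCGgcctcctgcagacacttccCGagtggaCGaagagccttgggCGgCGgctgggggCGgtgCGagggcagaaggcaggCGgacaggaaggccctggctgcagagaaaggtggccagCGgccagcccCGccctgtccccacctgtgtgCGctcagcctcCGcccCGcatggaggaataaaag
Krt90: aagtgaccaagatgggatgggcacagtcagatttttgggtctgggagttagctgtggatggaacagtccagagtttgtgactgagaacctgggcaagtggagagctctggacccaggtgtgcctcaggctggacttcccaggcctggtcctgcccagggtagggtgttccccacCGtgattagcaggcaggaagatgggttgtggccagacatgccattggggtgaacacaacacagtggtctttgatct
Prr9: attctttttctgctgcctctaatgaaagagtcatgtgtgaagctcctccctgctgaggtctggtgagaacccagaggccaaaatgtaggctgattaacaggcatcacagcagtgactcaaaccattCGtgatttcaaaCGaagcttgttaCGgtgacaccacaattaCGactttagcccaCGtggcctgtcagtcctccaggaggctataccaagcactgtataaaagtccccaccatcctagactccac
Crnn: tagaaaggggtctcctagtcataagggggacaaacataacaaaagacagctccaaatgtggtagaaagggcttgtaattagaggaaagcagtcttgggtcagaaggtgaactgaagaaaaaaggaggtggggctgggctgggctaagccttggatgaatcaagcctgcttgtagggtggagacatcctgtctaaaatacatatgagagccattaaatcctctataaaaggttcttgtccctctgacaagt

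Krt28 has 6 CpG in the printed bases, Krtap3-2 none, Krt7 16, Krt90 1, Prr9 5 and Crnn none. The letters TATAAA, on either strand, were found in 33 of the 41 type I windows (80.5%), in 20 of the 21 Krtap windows, in 6 of the 16 type II windows (37.5%) and in 21 of the 46 epidermal windows (45.7%), against 14.2% of all 27018 windows. The letters TGANTCA, with any base at N, take in the core of AP-1 sites but also other sequences. They were found in 17 epidermal windows (37.0%), against 7.94% of all windows. Of the 14 Sprr windows 9 held them, and of the 20 Lce windows none did. The same letters were found in 6 type I windows and in no type II window. Family members also share sequence. An exact run of 45 bases, the length of the shortest probes, was shared with another window of the same list by 9 epidermal windows (5 Sprr and 4 Lce) and 4 Krtap windows, and the windows of Sprr2a1 and Sprr2a2 were identical. Probes in such stretches can bind DNA of more than 1 gene. Which regions they touch was not tested.

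In CC adipose tissue, the type II keratin cluster was near the middle of the array and the other clusters were below it. The median level over the probes of the type II cluster was 0.04, 0.11 and 0.08 on CC replicates 1 to 3 (0.08 ± 0.04, SD, n = 3). That of the type I cluster was -0.34, -0.32 and -0.30 (-0.32 ± 0.02, SD, n = 3), and that of the epidermal differentiation complex was -0.58, -0.53 and -0.51 (-0.54 ± 0.04, SD, n = 3). The order type II, type I, epidermal was the same on all 6 arrays, LC arrays included, and the CC values of the clusters did not overlap. Above 0 were 15 of 33 type II regions (45.5%), 12 of 58 type I regions (20.7%) and 6 of 54 epidermal regions (11.1%), against 40.5% of all regions tested.

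The probes themselves differed between the clusters. Probes on this array were 45 to 60 bases long, and 45-base probes made up 61.0% of the type II cluster, 38.7% of the type I cluster and 15.1% of the epidermal complex, against 49.9% of the array. Probes of 60 bases made up 4.92%, 17.4% and 32.2% in the same order, against 13.2%. Over the whole array the median CC level was 0.51 on 45-base probes and -1.28 on 60-base probes. Among 45-base probes alone the CC medians were 0.50 ± 0.02 for type II, 0.38 ± 0.04 for type I and 0.34 ± 0.07 for the epidermal complex (SD, n = 3), and the order of the clusters was no longer the same on every array. Among 60-base probes the order was turned on all 6 arrays, with the epidermal complex highest at -1.03 ± 0.07, type I at -1.32 ± 0.09 and type II lowest at -1.73 ± 0.11 (SD, n = 3, from 128, 75 and 13 probes). With the array's median for each probe length taken off, the CC medians were 0.04 for the epidermal complex, -0.06 for type I and -0.11 for type II.

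**Figure D1:**
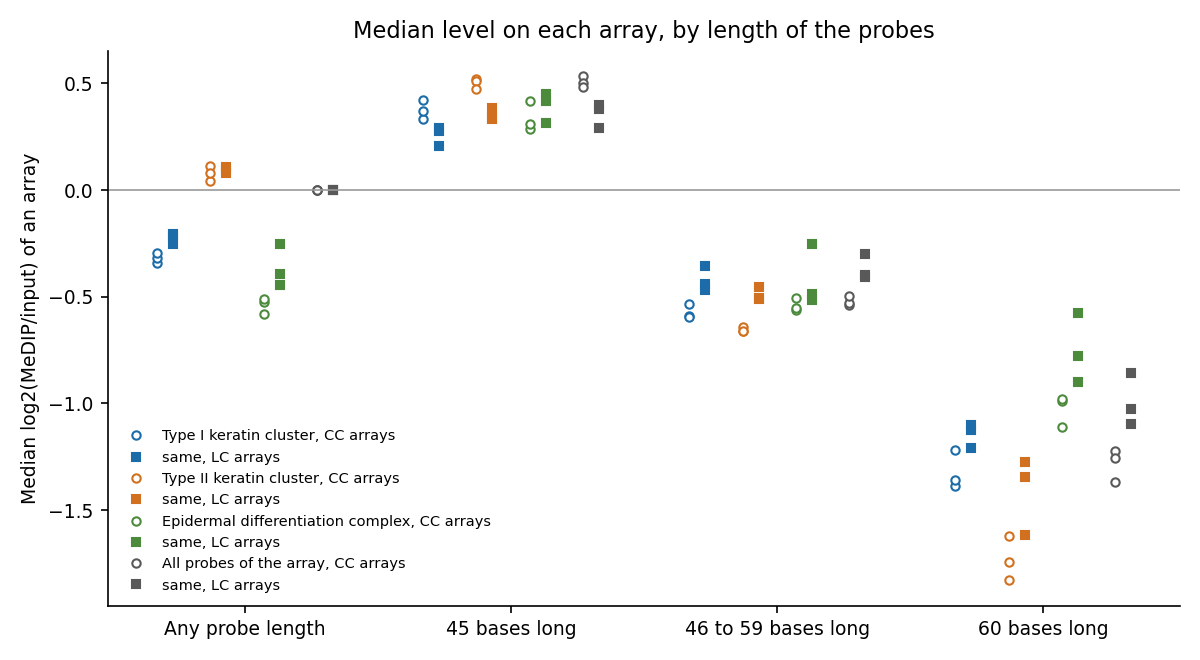
Median log2(MeDIP/input) on each of the 6 arrays, over all probes of a cluster and over its probes of 45, 46 to 59 and 60 bases (y axis), with CC arrays as open circles, LC arrays as filled squares and all probes of the array in gray. The clusters are spread from -0.54 to 0.08 in CC over all probes but lie between 0.34 and 0.50 over 45-base probes, and the epidermal complex is the highest of them over 60-base probes.

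The MeDIP channel of the long probes was often dim. In the epidermal complex, 170 of 398 probes (42.7%) were not well above background in the MeDIP channel on any array, against 28.8% in the type I cluster, 16.7% in the type II cluster and 22.7% of the array, and 54.7% of those 170 were 60-base probes. Such probes have only a bound on the MeDIP side. Their median CC level was -1.69 in the epidermal complex, while the 209 epidermal probes above background in MeDIP on all 6 arrays had a median of 0.32. For type I these medians were -1.78 and 0.16, and for type II they were -2.22 and 0.47. Leaving out probes that are dim in MeDIP keeps those with more signal, so the second values are high by construction.

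Regions within a cluster differed far more from each other than the CC arrays did. Among tested regions, means in CC ran from -1.45 to 0.61 in the type I cluster, from -1.48 to 0.77 in the type II cluster and from -1.71 to 0.49 in the epidermal complex. The median SD between CC arrays was 0.05 to 0.06. Probes of the same region differed still more, with an SD of 1.36 to 1.45 within regions against 0.50 to 0.62 between region means. Over the array these were 1.43 and 0.79. A region mean rested on a median of 8 probes, and the part of probe scatter in the differences between regions was not tested. Levels of neighboring regions did not follow each other along the chromosome, with correlations of 0.03, -0.09 and 0.06 over 58, 33 and 54 regions. The type II cluster spanned 659041 bp, the type I cluster 927602 bp and the epidermal complex 1455872 bp, with median distances between regions of 17130.5, 8000 and 14725.5 bp.

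**Figure D2:**
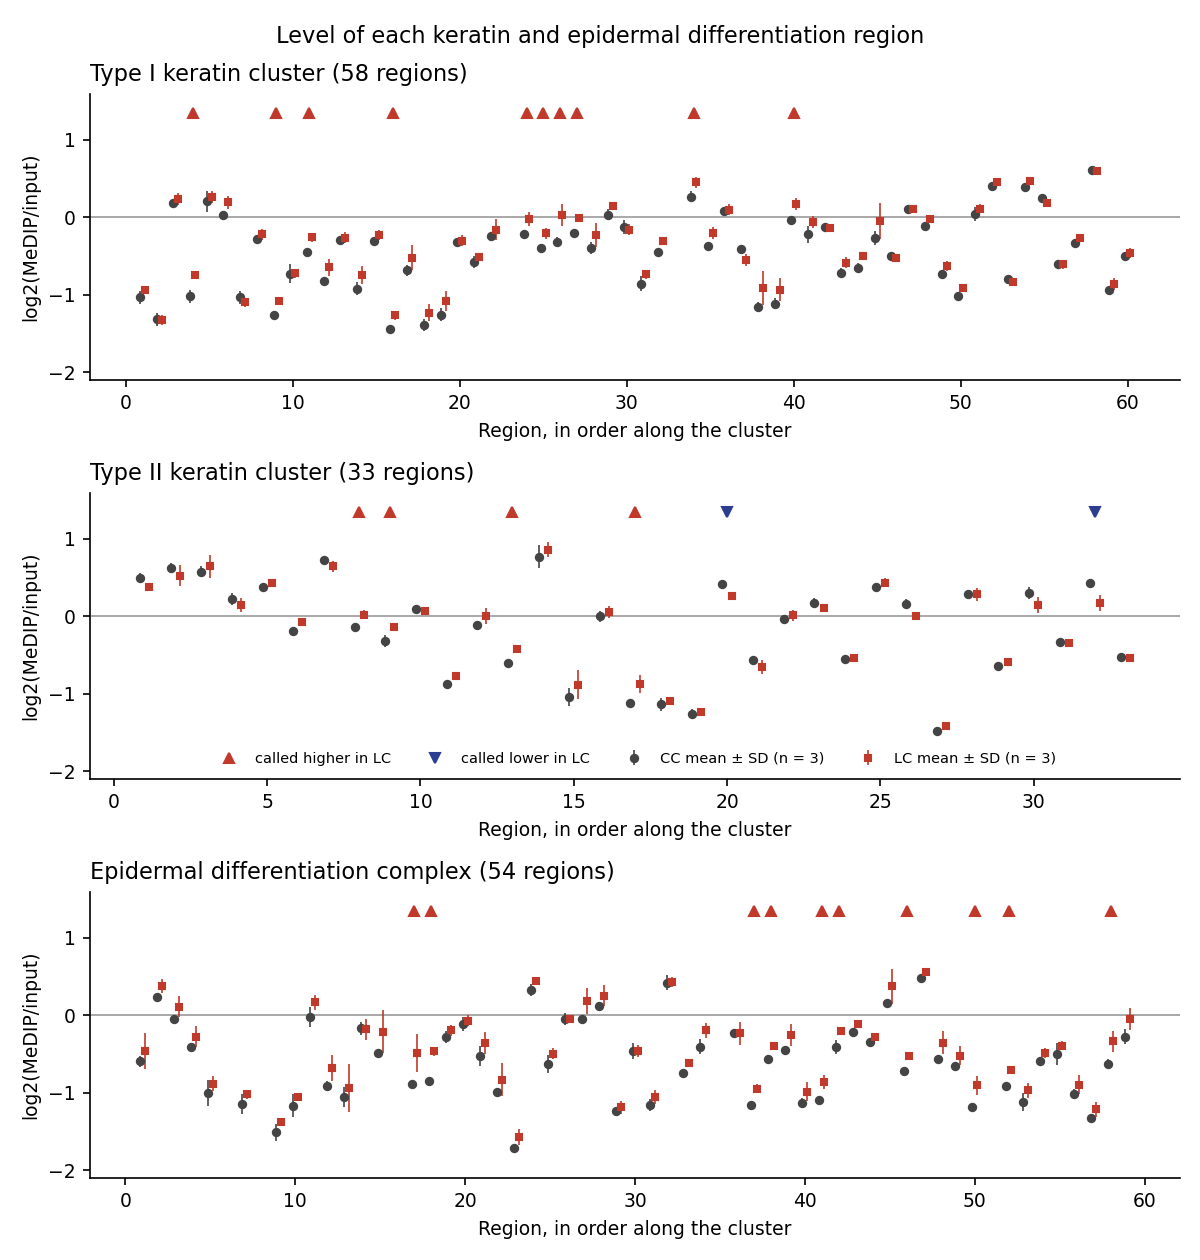
Mean log2(MeDIP/input) of each tested region in the order in which the regions lie along each cluster (x axis), for CC (gray circles) and LC (red squares), with bars for the SD of 3 arrays and triangles over the regions called higher or lower in LC. Levels jump from region to region between -1.71 and 0.77 in CC, while the symbols of the groups lie close together.

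The highest tested region of the type I cluster was I-58 (chr11:100054063-100055222, 6 probes), at 0.64, 0.59 and 0.61 in CC and at 0.62, 0.57 and 0.61 in LC, and the groups overlapped. Its level rested on 3 neighboring 45-base probes with CC means of 1.37, 1.55 and 2.42, while the other probes lay between -0.66 and -0.45. Region I-52 (chr11:99949056-99950740) was at 0.40 ± 0.01 and I-54 (chr11:99966446-99968082) at 0.39 ± 0.02 in CC (SD, n = 3). With the array's median for each probe length taken off, I-58, I-52 and I-54 were at 0.39, 0.51 and 0.64, below I-40 (0.86) and I-41 (0.88), so that this order of the regions did not hold. The lowest tested regions were I-16 (chr11:99452192-99453904) at -1.45 ± 0.03, I-18 (chr11:99464123-99465207) at -1.39 ± 0.07 and I-2 (chr11:99198787-99200391) at -1.32 ± 0.08 (SD, n = 3). With probe length taken off, I-16, I-18 and I-2 were at -0.95, -0.85 and -1.07, and I-59 was lower, at -1.12. In I-6 (chr11:99283083-99284853), the first along the cluster of the regions with 9 probes, the most of any, the level was 0.06, -0.02 and 0.06 in CC and 0.28, 0.17 and 0.13 in LC, with a difference of 0.16 that missed the threshold (limma adjusted p = 0.0618).

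In the type II cluster the highest region was II-14 (chr15:101439089-101439749, 4 probes), at 0.82, 0.61 and 0.88 in CC and 0.91, 0.92 and 0.75 in LC. None of its probes was dim in either channel on all arrays of a group, and the CC means of the probes ran from 0.05 to 1.39. Next came II-7 (chr15:101321445-101323188) at 0.73 ± 0.01 and II-2 (chr15:101241534-101243249) at 0.63 ± 0.06 in CC (SD, n = 3), so that II-14 and II-7 did not differ beyond the spread of II-14. Region II-2 had 45-base probes only, and with probe length taken off it was at 0.12, while II-14 was at 1.01, II-3 at 0.55 and II-7 at 0.48. The lowest was II-27 (chr15:101699552-101701324, 9 probes), at -1.48 ± 0.03 in CC (SD, n = 3), where 5 of the 9 probes were not above background in MeDIP on any array of either group. Regions II-19 (chr15:101524252-101525923) at -1.26 ± 0.06 and II-18 (chr15:101521617-101523154) at -1.13 ± 0.08 (SD, n = 3) were also low and are next to each other. With probe length taken off, II-27 and II-19 were both at -1.03, and II-18 and II-11 both at -1.02. Region II-1 (chr15:101200057-101201756, 9 probes) was at 0.49 ± 0.07 in CC and 0.37 ± 0.03 in LC (SD, n = 3), with all LC arrays below all CC arrays and a difference of -0.12 (limma adjusted p = 0.109).

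In the epidermal differentiation complex the highest regions were E-47 (chr3:92794994-92796499, 8 probes) at 0.49, 0.47 and 0.50 in CC, E-32 (chr3:92523777-92525555) at 0.42 ± 0.10 and E-24 (chr3:92392447-92394188) at 0.33 ± 0.07 (SD, n = 3). E-32 and E-47 did not differ beyond the spread of E-32. Against the array's median for the lengths of their probes these regions were at 1.03, 1.14 and 1.31. None of the 8 probes of E-47 was dim in MeDIP on every array. The lowest tested regions were E-23 (chr3:92377170-92378930, 7 probes) at -1.72, -1.67 and -1.75, E-9 (chr3:92119327-92120977) at -1.51 ± 0.11 and E-57 (chr3:93196640-93197891) at -1.33 ± 0.06 (SD, n = 3). In E-23, the lowest tested region of the 3 clusters, 4 of 7 probes were not above background in MeDIP on any array. With probe length taken off, E-23, E-9 and E-57 were at -0.96, -0.83 and -0.92. E-23 was then above I-59, at -1.12, and no longer the lowest of the 3 clusters. The lowest tested epidermal region, E-23, and 1 of the 3 highest, E-24, are neighbors. Region E-2 (chr3:91886573-91888339), with 9 probes, was at 0.23 ± 0.03 in CC and 0.38 ± 0.09 in LC (SD, n = 3, difference 0.15, limma adjusted p = 0.0786).

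Between the groups, levels were more often higher than lower in LC, and most regions did not pass the test. Limma called 24 member regions higher in LC and 2 lower, of 145, at an adjusted p under 0.05. In all regions of the array 10.2% were called higher and 8.84% lower, so that 16.6% of the members were called higher and 1.38% lower. By cluster, 10 of 58 type I regions were called higher and 0 lower (1 lower at an unadjusted p under 0.05), 4 of 33 type II regions higher and 2 lower, and 10 of 54 epidermal regions higher and 0 lower (0 lower at an unadjusted p under 0.05). All LC arrays lay above all CC arrays in 57 of the 145 regions (39.3%) and below them in 6 (4.14%), against 24.1% and 20.5% of all regions. A positive difference was found in 47 type I regions, 20 type II regions and 51 epidermal regions (81.0%, 60.6% and 94.4%), against 53.8% of all regions. With probe length taken off, it was found in 40, 23 and 23 of them (69.0%, 69.7% and 42.6%), against 49.8% of all regions. Per probe, 27 of 1093 were called higher (2.47%, against 1.75% of the array) and 18 lower (1.65%, against 4.29%).

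These calls did not hold with the scan day as a block. Limma then called 0 member regions (0 of all regions of the array, smallest adjusted p = 0.0508), while 52 were higher and 6 lower at an unadjusted p under 0.05, close to the 53 and 6 without the block. Of the 3 scan days taken alone, each with 1 LC and 1 CC array, 120, 103 and 105 of the 145 differences were positive on days 1, 2 and 3, and 81 were positive on each day. All 26 called regions had the same direction on each day. This follows from their LC arrays lying all above, or all below, their CC arrays, and adds no separate evidence. No member region was called without CC replicate 1 or without CC replicate 3, and 3 were called higher without CC replicate 2, 14 without LC replicate 3, 17 without LC replicate 1 and 35 without LC replicate 2. The shares of all regions called in these fits are not given here, so a shift of the members cannot be told from one of the whole array.

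The median difference between the groups over the probes was 0.16 in the epidermal complex, 0.11 in the type I cluster and 0.04 in the type II cluster, against 0.05 over the array. By scan day it was 0.28, 0.09 and 0.08 in the epidermal complex, 0.15, 0.06 and 0.08 in type I and 0.02, 0.01 and -0.00 in type II. LC replicate 1, on the first day, was the highest array in the epidermal complex (median level -0.25, against -0.45 and -0.39 on LC replicates 2 and 3), and without it the difference there was 0.11. The differences also moved with probe length. On the whole array the median difference was -0.09 on 45-base probes and 0.27 on 60-base probes. In the epidermal complex it was 0.05 on 45-base, 0.15 on 46- to 59-base and 0.25 on 60-base probes. In type I it was -0.00, 0.15 and 0.32, and in type II -0.04, 0.13 and 0.30. With the array's median for each length taken off each array, the cluster differences were -0.00, 0.05 and 0.06 for the epidermal, type I and type II clusters, and 3 member regions were called higher and 0 lower (limma). The share of all regions called at this setting is not given here.

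**Figure D3:**
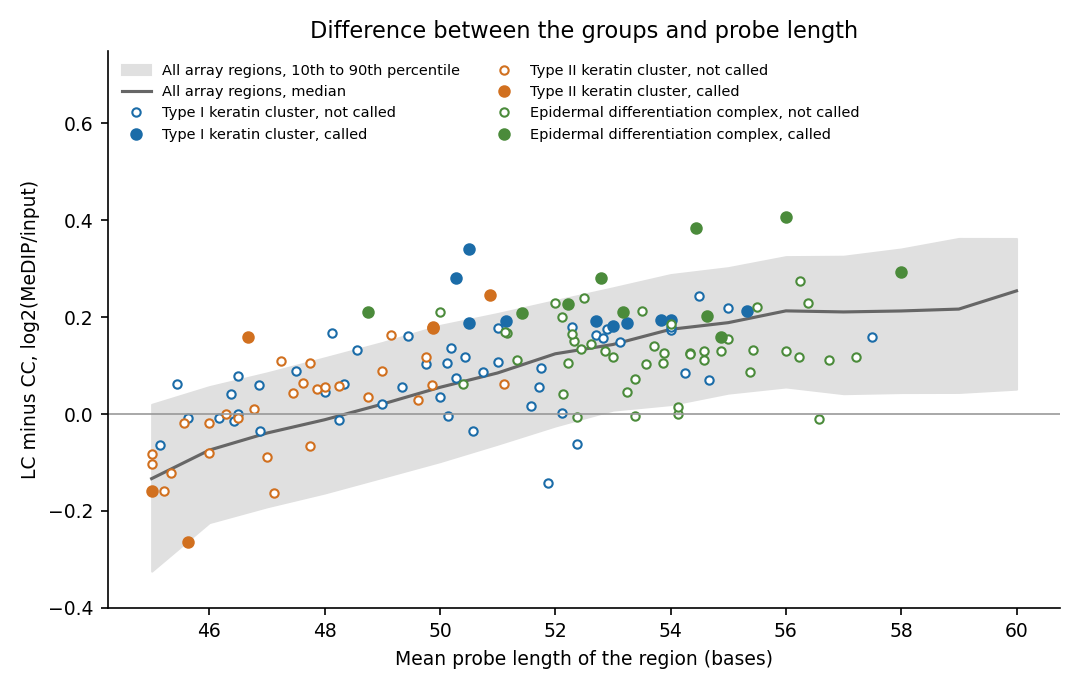
LC minus CC difference of each member region in log2(MeDIP/input) (y axis) against the mean length of its probes in bases (x axis), with filled symbols for regions called by limma, and the median (line) and the 10th to 90th percentile (band) of all regions of the array at each mean length. Most members lie inside the band, and the type II regions, with the shortest probes, lie lower than the epidermal regions.

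In the channels taken alone, most region differences were larger in the input than in MeDIP. Over epidermal regions, LC minus CC had a median of -0.10 in the log2 input signal and 0.02 in the log2 MeDIP signal, each centered on its array. It was -0.05 and 0.01 over type I regions and 0.04 and 0.01 over type II regions. The ratio and each channel were centered separately, so the channel differences of a region do not add up exactly to its difference in the ratio. The input difference was larger in size than the MeDIP difference in 48 of 54 epidermal, 46 of 58 type I and 28 of 33 type II regions, against 84.0% of all regions. Over the members, input differences ran from -0.34 to 0.24 and MeDIP differences from -0.07 to 0.10. Of the 26 called regions, 24 had an input difference opposite in sign to the ratio and larger than the MeDIP difference. The input DNA was not enriched by the antibody, and the part of the lower input signal of the LC arrays in the calls was not tested.

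**Figure D4:**
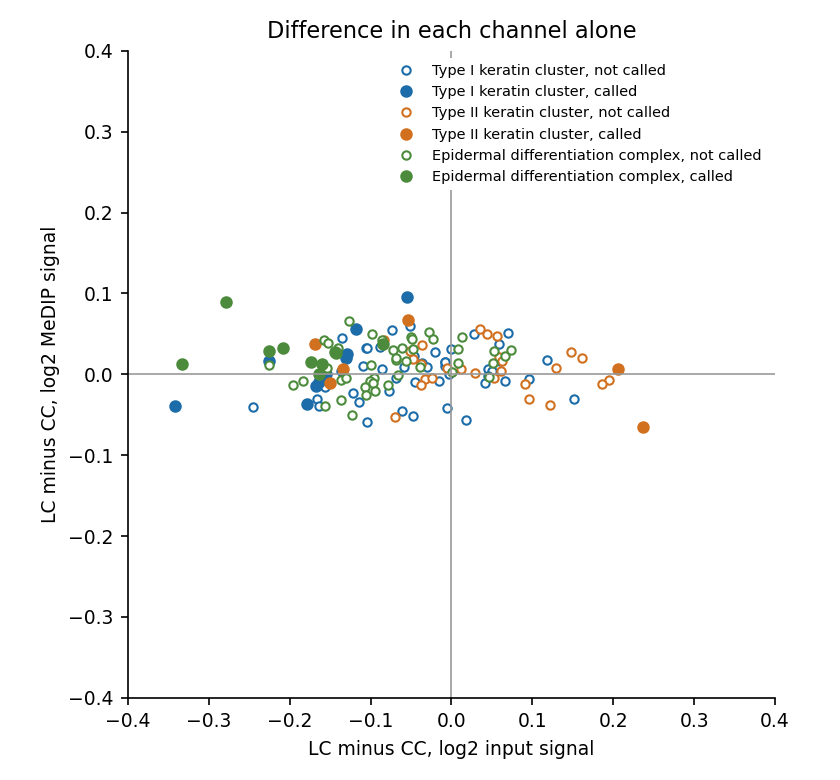
LC minus CC difference of each member region in the log2 input signal (x axis) and in the log2 MeDIP signal (y axis), on the same scale, with filled symbols for called regions. The points spread from -0.34 to 0.24 along the input axis and from -0.07 to 0.10 along the MeDIP axis.

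The largest differences in the epidermal complex were in the neighbors E-17 and E-18. Region E-18 (chr3:92235259-92237000, 9 probes, mean length 54.4 bases) was at -0.87, -0.87 and -0.82 in CC and at -0.40, -0.48 and -0.52 in LC. The LC arrays all lay above the CC arrays, by 0.46, 0.39 and 0.30 on the 3 scan days. LC was higher by 0.38 (standard error 0.05, limma adjusted p = 0.0178, and 0.0508 with the block). All 9 probes had a positive difference, and the largest was on a 60-base probe that was not above background in either channel on any array. In the channels alone the region differed by -0.33 in the input and 0.01 in MeDIP. With probe length taken off the difference was 0.20, and it still passed (adjusted p = 0.0377). After normexp background correction it was 0.07 and did not pass.

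Region E-17 (chr3:92221239-92222319, 6 probes) was at -0.88, -0.92 and -0.87 in CC and at -0.21, -0.69 and -0.55 in LC. LC replicate 1 was well above the other LC arrays, though all were above the CC arrays. The difference of 0.41 (standard error 0.10, limma adjusted p = 0.0285) was 0.27 without LC replicate 1 and 0.18 with probe length taken off, and 4 of the 6 probes were not above background in MeDIP on any array. By the RefSeq order the Sprr genes, Ivl and the Lce genes follow each other in the middle of the complex, but these regions were not matched to any of them.

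The other 8 called epidermal regions were E-37, E-38, E-41, E-42, E-46, E-50, E-52 and E-58, with differences of 0.16 to 0.29. In E-58 (chr3:93245016-93246558, 8 probes, mean length 58 bases) the level was -0.68, -0.56 and -0.63 in CC and -0.19, -0.46 and -0.35 in LC, with 6 of its 8 probes not above background in MeDIP on any array. Region E-52 (chr3:92876210-92876885, 4 probes) was at -0.96, -0.93 and -0.85 in CC and at -0.70, -0.71 and -0.70 in LC (difference 0.21, standard error 0.05, limma adjusted p = 0.0235). It was the only called epidermal region without a probe that was dim in MeDIP on every array, and its difference was 0.19 with probe length taken off. The same correction left 0.14 in E-50, 0.10 in E-37 and E-42, 0.07 in E-41, 0.03 in E-58 and 0.02 in E-46, and -0.02 in E-38. The most negative differences of tested epidermal regions were -0.01 in E-14 (chr3:92188332-92189985) and in E-36 (chr3:92582332-92583921), where the groups overlapped.

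In the type I cluster, 4 of the 10 called regions were the consecutive tested regions I-24 to I-27. Region I-26 (chr11:99520010-99521094, 6 probes) was at -0.33, -0.25 and -0.36 in CC and at 0.19, -0.03 and -0.08 in LC. Its difference of 0.34 (standard error 0.07, limma adjusted p = 0.0202) was the largest of the cluster. It came with an input difference of -0.34 and a MeDIP difference of -0.04, and 3 of the 6 probes were not above background in MeDIP on any array. The largest probe difference, 0.83, was on a 60-base probe of this kind. After normexp background correction the difference was -0.02 and in the authors' processed values -0.03, both without passing the test. The neighbors I-24, I-25 and I-27 each differed by 0.19 and were at -0.21 ± 0.04, -0.40 ± 0.04 and -0.20 ± 0.04 in CC (SD, n = 3). With the probe length taken off, their differences were 0.05, 0.07 and 0.07.

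Region I-4 (chr11:99235718-99237047, 7 probes) was at -1.11, -1.01 and -0.95 in CC and at -0.76, -0.77 and -0.69 in LC. LC was higher by 0.28 (standard error 0.05, limma adjusted p = 0.0194, and 0.0508 with the block), with -0.23 in the input and 0.02 in MeDIP. It had the same sign under normexp (0.23) and in the authors' processed values (0.15), and passed in both. The other called type I regions were I-9, I-11, I-16, I-34 and I-40, with differences of 0.18 to 0.21. With probe length taken off these were 0.06, 0.05, 0.08, 0.13 and -0.00. Of these only I-9 had a larger difference in MeDIP (0.10) than in the input (-0.05). The most negative difference of a tested type I region was -0.14 in I-37 (chr11:99712432-99713991), at -0.42, -0.43 and -0.37 in CC and -0.60, -0.59 and -0.46 in LC, where all LC arrays lay below the CC arrays but the test was not passed (limma adjusted p = 0.0770). Next was I-55 (chr11:99982312-99983923) with -0.06.

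The type II cluster was the only one of the 3 with regions called lower, II-20 and II-32, of which II-20 is named here after its values were seen. Region II-32 (chr15:101834275-101835978, 8 probes, 7 of 45 bases) was at 0.44, 0.46 and 0.40 in CC and at 0.06, 0.19 and 0.27 in LC. Its difference of -0.26 (standard error 0.06) passed the test (limma adjusted p = 0.0235, and 0.0539 with the block), with 0.24 in the input and -0.07 in MeDIP. None of its probes was dim, that is not well above background, in either channel on all arrays of a group. It lay next to last in the cluster, and by the RefSeq order the last genes are Krt8 and Krt18, the keratin pair of simple epithelia, but the region was not matched to them. Region II-20 (chr15:101542968-101544547, 8 probes, all of 45 bases) was at 0.39, 0.43 and 0.45 in CC and at 0.23, 0.28 and 0.28 in LC (difference -0.16, standard error 0.05, limma adjusted p = 0.0397). With probe length taken off, the differences were -0.15 in II-32 and -0.01 in II-20, and neither passed.

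Among type II regions called higher, II-17 (chr15:101510232-101511896, 8 probes) was at -1.14, -1.07 and -1.15 in CC and at -0.76, -0.99 and -0.86 in LC, a difference of 0.25 (standard error 0.06, limma adjusted p = 0.0302). Its largest probe difference, 1.01, was on a 60-base probe that was not above background in either channel on any array. Region II-9 (chr15:101362761-101364357) was at -0.39, -0.32 and -0.23 in CC and at -0.15, -0.13 and -0.14 in LC, a difference of 0.18 (standard error 0.05, limma adjusted p = 0.0416). Region II-13 differed by 0.18 and II-8 by 0.16. With probe length taken off, II-17, II-9, II-13 and II-8 differed by 0.20, 0.13, 0.14 and 0.18. In II-8 the MeDIP difference (0.07) was larger than the input difference (-0.05). Region II-26 (chr15:101680921-101682432), at 0.19, 0.21 and 0.10 in CC and -0.05, -0.01 and 0.06 in LC, differed by -0.16 and lay just outside the threshold (limma adjusted p = 0.0513).

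**Figure D5:**
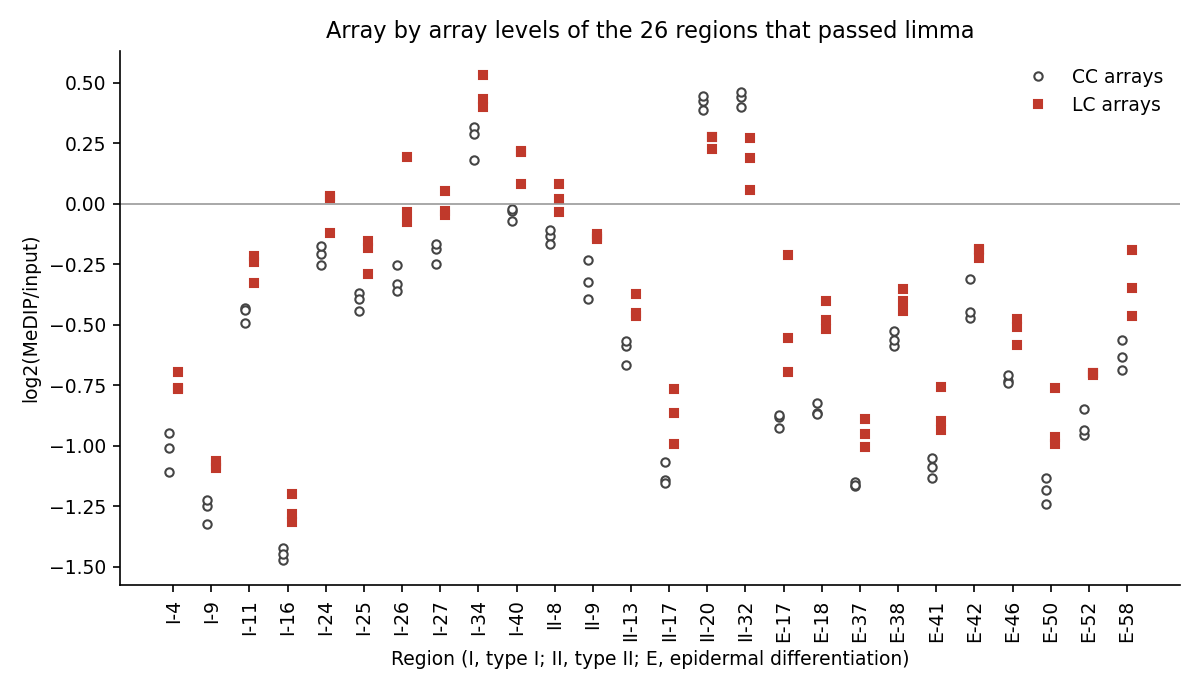
Log2(MeDIP/input) on each array (y axis) for the 26 member regions called by limma (x axis), with CC arrays as open circles and LC arrays as red squares. In 24 regions every LC array is above every CC array, in II-20 and II-32 every LC array is below, and in E-17 and I-26 LC replicate 1 stands apart from the other LC arrays.

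Of the 27 member probes called higher, 15 were 60 bases long, none was 45 bases long, and 22 were not above background in MeDIP on any array. Of the 18 called lower, 10 were 45 bases long and 4 were dim in MeDIP. They lay in 26 and 18 regions, of which 9 and 1 were themselves called the same way. The regions called higher had a median CC level of -0.62, with 1 of 24 above 0, and those called lower were both above 0. The mean probe lengths of the regions called higher ran from 46.7 to 58 bases with a median of 52.8, against a median of 51.1 in those not called. A probe dim in MeDIP on every array was present in 23 of the 24 regions called higher, in 0 of the 2 called lower and in 105 of the 119 not called.

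The 7 regions with fewer than 3 probes had no test. Regions E-6 and E-8, with 2 probes each, were the lowest of all members at -2.98 and -3.08 in CC and -2.88 and -3.02 in LC. Region I-33, with 2 probes, was at 0.60 in CC and 0.83 in LC, and E-35, with 2, was at -1.16 and -0.84. Regions I-23, E-16 and E-51 had 1 probe each, with 0.19, 0.00 and -2.01 in CC and -0.09, 0.19 and -1.63 in LC.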

How the data were processed

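The 6 Agilent promoter arrays were deposited as scanner output, with intensity values per probe in both channels, background-subtracted and dye-normalized by the authors' scanner software. The authors also deposited a table of processed log2 ratios, used as an alternative, which correlated with the scanner ratios of the same array at 0.866 to 0.905 and had medians of 0.016 to 0.034, with its normalization not given in the sources used here. The software's deposited log10 ratio was used only to check the direction. All arrays had MeDIP in Cy5 and input in Cy3, with no dye swap, so a dye effect is part of every level. Positions are mm9. Log2 ratios of the processed signals were computed, control features and 362 outlier probes were left out (2 of them members), and each array was centered on its median. Probes with starts at most 500 bp apart were averaged into regions. LC and CC were compared with limma 3.58.1 (R 4.3.3), with moderated tests over all 22584 regions with at least 3 probes and over all 174276 probes, and Benjamini-Hochberg adjusted p under 0.05 was called. Errors given as SD are between the arrays of a group and hold mouse, pull-down and array variation together. The limma p-values set a difference against a variance moderated over all regions or all probes. The number of arrays limits the precision. The fits were checked on simulated data with independent noise and known shifts. The simulated data held no effect of scan day, slide position, input brightness or probe length, so this check does not bear on the calls made here. Named by rule were, per cluster, the 3 highest and 3 lowest regions in CC, the 2 most positive and 2 most negative differences and the region with the most probes (the first along the cluster where several had as many), all among regions with at least 3 probes. Other called regions and those with fewer than 3 probes were named after their values were seen. The members, clusters and gene lists were chosen with earlier results of these data known. A probe was called dim where it was not well above background by the scanner's flag.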

Additional observations from a re-analysis of the deposited data

How the results depend on the processing

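The counts of member regions and probes called moved with most settings. The shares over the whole array are not given beside the counts of this section, so a shift of the members cannot be told from one of the array. Against 24 regions higher and 2 lower in LC, normexp background correction gave 45 and 2, loess within arrays 4 and 1, quantile normalization 7 and 1, a common median absolute deviation 3 and 0, probes well above background in the input 21 and 5, slide as a block 0 and 0, probe length removed 3 and 0, the median over the probes of a region 10 and 0, and the methods' t-test 35 and 5 unadjusted and 0 and 0 after adjustment. Against 27 probes higher and 18 lower, the same settings gave 132 and 35 (normexp), 4 and 6 (loess), 3 and 12 (quantile), 4 and 12 (common deviation), 46 and 38 (input filter), 0 and 0 (slide), 0 and 3 (probe length), 165 and 72 (t-test unadjusted) and 0 and 0 (t-test adjusted). The slide was read from a scan identifier, which LC and CC shared in replicates 1 and 2 but not in replicate 3. With slide as a block, replicate 3 thus adds nothing to the comparison, and the 0 calls rest on 2 arrays of each group. The authors' processed values gave 20 regions higher and 3 lower, and 55 probes higher and 29 lower. Keeping only probes well above background in MeDIP, a setting chosen after seeing the data, gave 12 regions higher and 7 lower, and 24 probes higher and 34 lower. Leaving out each array in turn gave 0 to 35 regions higher, 0 to 2 lower, 0 to 53 probes higher and 0 to 28 lower. Where limma called 0 regions, between 32 and 52 were higher at an unadjusted p under 0.05.

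With the replicate number, which is also the scan day, as a block, 0 regions were called in either direction and 7 probes were higher and 12 lower. With probe length removed together with the replicate block, 5 regions were higher and 4 lower, and 0 probes were higher and 13 lower. The numbers were not taken as pairs, since the deviations of same-numbered arrays from their group means correlated at -0.16, 0.11 and -0.00.

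The median levels of the clusters in CC moved too. For the type I, type II and epidermal clusters they were -0.15, 0.031 and -0.16 after normexp, -0.12, -0.042 and -0.0014 after loess, -0.16, 0.15 and -0.32 with the input filter (0.10 over the array), -0.065, -0.11 and 0.044 with probe length removed, and 0.16, 0.38 and 0.32 with the MeDIP filter (0.42 over the array). The differences between LC and CC were 0.071 (type II) and 0.063 (epidermal) after normexp, 0.085 (type I) and 0.062 (epidermal) after loess, 0.079 (type I) and 0.034 (epidermal) in the authors' processed values, 0.089 (type I) after quantile normalization, 0.085 (type I) at a common deviation, 0.090 (type I) with the input filter, and 0.068 (type I) and -0.0080 (type II) with the MeDIP filter. With probe length removed, with or without the replicate block, they were 0.048 (type I) and -0.0040 (epidermal). Leaving out each array gave 0.09 to 0.12, 0.02 to 0.03 and 0.11 to 0.18 for type I, type II and epidermal, and CC levels of -0.33 to -0.31, 0.06 to 0.10 and -0.55 to -0.52. Region I-26 went from 0.34 to -0.024 after normexp and -0.033 in the authors' values. The cause of these changes was not tested. For the cluster medians, which are over probes, the settings on region summaries were not run. Probes dim in MeDIP limit what the low levels can show.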
